A study of Gallus gallus with 6 samples.

Results

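Forelimb bud mesenchyme of Hamburger-Hamilton stage 19 (HH19) chick embryos was set against neck mesenchyme of the same stage, the tissue that lies in front of the forelimb. Every gene at 1 CPM (read counts divided by the library's total of reads counted to genes, on the usual counts-per-M scale) or more in either library entered the comparison, which left 11959 of the 17781 genes in the table. The series holds 6 libraries of polyadenylated RNA, sequenced on Illumina, from mesenchyme taken straight from the embryo with no treatment, and its title concerns turning non-limb fibroblasts into cells like limb progenitors. Besides forelimb HH19 and neck HH19 these are presumptive forelimb HH15, hindlimb HH18, flank HH19, and a further HH19 library labelled flank and neck. The labels give no strain, and do not say how many embryos were pooled or how ectoderm was removed. Forelimb HH19 held 7957948 counted reads and neck HH19 held 8139377, of which 24.2% in forelimb and 25.4% in neck came from mitochondrial genes.

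A limb bud grows from lateral plate mesoderm at a fixed level of the trunk. In the forelimb field the T-box factor TBX5 switches on FGF10, FGF10 induces a ridge of ectoderm at the bud's edge, and FGFs from that ridge keep the mesenchyme beneath it dividing and unspecialised. Sonic hedgehog from the posterior margin and the HOX genes of the 5′ ends of the HOXA and HOXD clusters then pattern the bud, whereas neck mesenchyme forms no limb and contributes connective tissue.

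Each tissue is 1 library, so no test was possible and no p-value is given. Genes are described by size, as the difference in log2(CPM + 1), forelimb minus neck, and as the fold of reads per library total with its exact 95% counting interval. Intervals cover counting error only and say nothing of differences between embryos or dissections. A library with 0 reads of a gene still allows 3 reads, which is 0.377 CPM in forelimb and 0.369 CPM in neck, and a fold set against a library with 0 reads is given as at least the fold over that floor. In bulk samples, fewer cells of a type and less RNA per cell cannot be told apart.

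The labels were set against marker genes first. TBX5, the forelimb-level T-box gene, had 182 CPM in forelimb and 165 CPM in neck, and TBX4, its hindlimb counterpart, had 2 reads in forelimb and 1 in neck. PRRX1, a marker of limb and lateral plate mesenchyme, had 264 CPM in forelimb and 261 CPM in neck. Neck thus held nearly as much TBX5 and PRRX1 as the bud. Its HOX genes of groups 9 to 13 were under 1 CPM apart from the HOXD10 entry, as described below. The library labelled flank and neck went against its label: it had 192 CPM of TFAP2A and 237 CPM of HOXD12, which were at 0 and 0.369 CPM in neck and at 0.604 and 0.483 CPM in flank. It enters no count below.

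In forelimb, 414 genes were 2-fold or more higher than in neck (3.46% of the genes measured) and 1608 were 2-fold or more lower (13.4%), together 16.9%. Of these, 33 higher genes had 0 reads in neck and 60 lower genes had 0 reads in forelimb. Such genes pass the filter only through the other library, so their call follows from the filter. At a 4-fold limit the counts were 80 higher and 275 lower. The 15 named genes with the largest positive difference included TFAP2A, TBX15 and HOX genes of groups 9 to 13 beside genes of other kinds, such as NTS and KCNG1. The 15 with the largest negative difference were mixed, and included APOA1, the matrix genes TNC, SVEP1 and COL6A1, ALDH1A2, and GATA4, GATA5 and GATA6. Entries with no gene name hold 2 of the 15 largest positive and 7 of the 15 largest negative differences over all entries, the lowest of them at -6.80, and are given only where they overlap a named gene. The median difference over all genes was -0.27, with 3953 genes above 0 and 8006 below. That tilt depends on scaling: with edgeR's TMM factors over the pair the median was -0.02 and the split was 750 higher and 1069 lower, so that 41.2% of called genes were higher instead of 20.5%. Of the 15 named genes with the largest difference in each direction, all 15 and all 15 stayed past 2-fold under TMM. They were picked for their size, so this outcome says little about the scaling. Counts of gene lists below are to be read against the shares of all genes, 3.46% higher and 13.4% lower. List counts under TMM are to be read instead against 750 higher and 1069 lower of all 11959 genes.

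**Figure D1:**
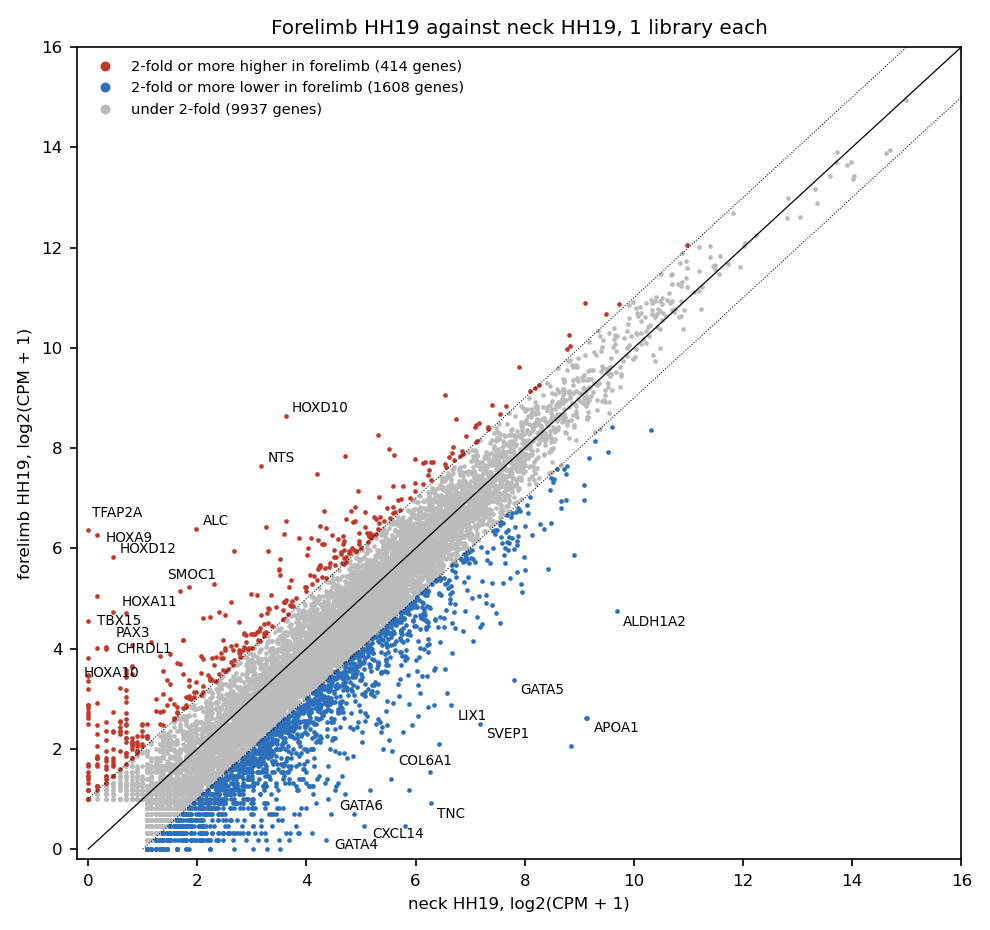
Level of each measured gene in neck HH19 (horizontal axis) and forelimb HH19 (vertical axis), both as log2(CPM + 1), with 1 library each. The solid line marks equal levels and the dotted lines a 2-fold difference; 414 genes lie above the upper dotted line and 1608 below the lower one, and names mark genes among the 15 largest differences in each direction.

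TFAP2A, a transcription factor of limb bud, ectoderm and neural crest, had the largest positive difference. It had 651 reads (81.8 CPM, Wilson 95% interval 75.8 to 88.3) in forelimb and 0 reads in neck, at least 222-fold higher. It was also high in hindlimb at 99.97 CPM, against 1.54 CPM in presumptive forelimb HH15 and 0.604 CPM in flank. The buds of HH18 and HH19 thus stood apart from the earlier limb field as well as from neck and flank for this gene. TBX15, a T-box factor of limb and trunk mesenchyme, was alike, with 22.5 CPM in forelimb, 0 in neck, 18.4 CPM in hindlimb, 0.421 CPM in presumptive forelimb and 0.121 CPM in flank.

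Several genes for secreted proteins and a channel were among the 15 named genes with the largest positive difference. NTS, which encodes the peptide neurotensin, had 199 CPM in forelimb and 7.99 CPM in neck, 24.9-fold higher (19.5 to 32.5). It was also above hindlimb at 17.8 CPM, presumptive forelimb at 1.12 CPM and flank at 0.483 CPM, so that its highest level of these libraries was in forelimb. The entry ALC had 82.2 CPM in forelimb and 2.95 CPM in neck. KCNG1, a potassium channel subunit, had 255 reads in forelimb and 1 in neck, a ratio of 261 (46.4 to 10341). SMOC1, a secreted matrix-associated protein, had 34.3 CPM in forelimb and 2.21 CPM in neck, and FSTL4, a follistatin-like protein, had 36.4 CPM in forelimb and 2.58 CPM in neck. SMOC1 was about as high in hindlimb (35.7 CPM) as in forelimb, whereas FSTL4 was at 2.49 CPM in hindlimb, near its neck level.

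All 9 measured HOX genes of paralog groups 9 to 13 were 2-fold or more higher in forelimb. Their median difference was 3.81, or 3.36 with genes at 0 reads in neck set to the 3-read floor, against -0.27 over all genes. Over the 15 genes of this list in the table, the summed level was 596 CPM in forelimb and 12.9 CPM in neck, with 421 CPM in flank. The HOXD10 entry made up most of the forelimb and neck sums, and which gene its reads belong to is uncertain, as described below. HOXA10, HOXD9, HOXD11 and HOXD13 had 0 reads in neck, so their calls follow from the filter. Of the 9, HOXD10 alone reached 1 CPM in neck, and the others entered only through forelimb. HOXA13, HOXB13 and the 4 HOXC genes of the groups in the table were under 1 CPM in both libraries.

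HOXA9 had 601 reads (75.5 CPM) in forelimb and 1 read (0.123 CPM) in neck, a ratio of 615 (110 to 24319). It had 77.9 CPM in hindlimb, 22.7 CPM in presumptive forelimb and 67.3 CPM in flank, so neck alone among these 5 libraries was near 0. HOXD9 was likewise high in flank (80.1 CPM), with 10.1 CPM in forelimb and 0 in neck. HOXA9 therefore set neck apart from forelimb, hindlimb, presumptive forelimb and flank, and HOXD9 set it apart from forelimb and flank.

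HOXD12 had a different spread over the libraries. It had 443 reads (55.7 CPM) in forelimb and 3 reads in neck, a ratio of 151 (51.3 to 735), with 159 CPM in hindlimb but 0.561 CPM in presumptive forelimb and 0.483 CPM in flank. HOXA11, a gene of the later middle limb segment, had 25.5 CPM in forelimb and 0.369 CPM in neck, 121 CPM in hindlimb, 0.561 CPM in presumptive forelimb and 1.09 CPM in flank. Both were thus above 25 CPM in the HH18 and HH19 buds and near the floor in neck, presumptive forelimb and flank. HOXA10 had 104 reads (13.1 CPM) in forelimb and 0 in neck, HOXD11 had 65 and 0, and HOXD13 had 48 and 0. HOXB9 had 38 reads in forelimb and 4 in neck. An unnamed entry on the opposite strand overlaps HOXD12 and HOXD13, with 79 reads in forelimb and 0 in neck.

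HOXD10 had the most reads of the group, 3159 in forelimb (397 CPM) and 92 in neck (11.3 CPM), 35.1-fold higher (28.5 to 43.7). Its entry spans 14452 bases and carries the description of HOXD8, so which gene of the cluster its reads belong to is uncertain. Its level was 207 CPM in hindlimb, 174 CPM in presumptive forelimb and 150 CPM in flank, all above neck.

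**Figure D2:**
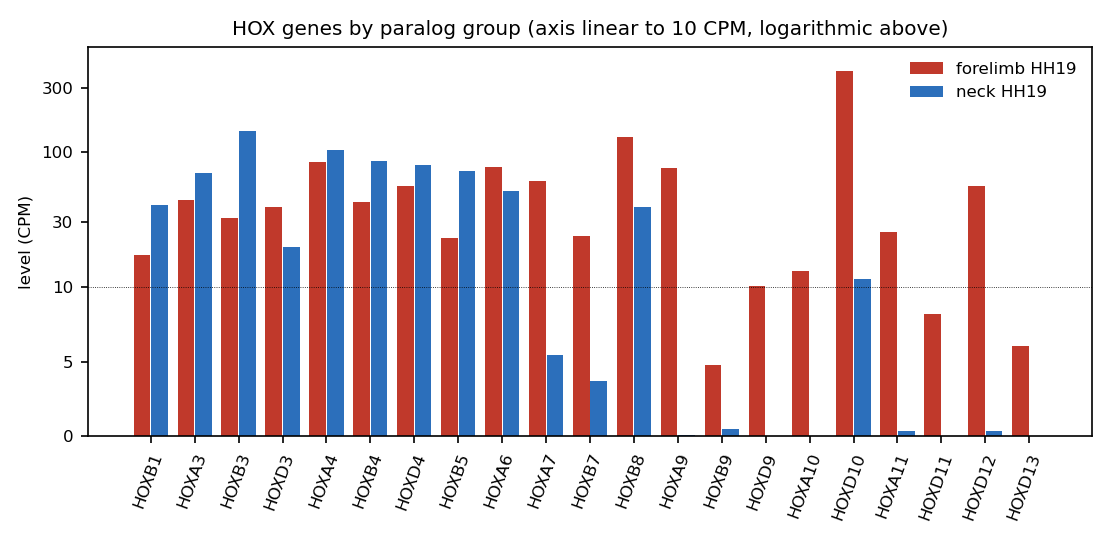
Level in CPM of 21 measured HOX genes in forelimb HH19 (left bars) and neck HH19 (right bars), 1 library each, ordered by paralog group; the axis is linear to 10 CPM and logarithmic above. All 9 genes of groups 9 to 13 are taller in forelimb, while groups 1 to 8 go both ways.

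HOX genes of groups 1 to 8 went both ways: of 13 measured, 3 were 2-fold or more higher in forelimb, 3 were lower, and the median difference was -0.49. The higher 3 were from groups 7 and 8. HOXA7 had 60.7 CPM in forelimb and 5.41 CPM in neck, HOXB7 had 23.8 CPM in forelimb and 3.69 CPM in neck, and HOXB8 had 128 CPM in forelimb and 39.2 CPM in neck. The lower 3 were HOXB3 (32.3 CPM in forelimb and 143 CPM in neck), HOXB5 (22.9 CPM in forelimb and 71.9 CPM in neck) and HOXB1 (17.2 CPM in forelimb and 40.1 CPM in neck). The HOXB8 entry covers HOXB5, HOXB3 and HOXB1 on the same strand, and how reads in such overlaps were counted is not given. HOXD3 and HOXA6 had positive differences below the limit (0.96 and 0.58), and HOXA4, HOXD4, HOXA3 and HOXB4 had negative ones, from -0.28 for HOXA4 to -0.999 for HOXB4, just inside the limit. Under TMM the counts were 4 higher and 2 lower.

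The genes that start a forelimb did not share a direction. Of 5 measured, FGF10 was 2-fold or more higher in forelimb, RARB, MEIS1 and ALDH1A2 were lower, and TBX5 differed by 0.14. FGF10, the mesenchymal signal to the ridge, had 107 reads (13.4 CPM) in forelimb and 26 reads (3.19 CPM) in neck, 4.21-fold higher (2.72 to 6.73). It had 20.4 CPM in hindlimb, 6.31 CPM in presumptive forelimb and 1.93 CPM in flank. TBX5 had 336 CPM in presumptive forelimb, 0.520 CPM in hindlimb and 102 CPM in flank, so hindlimb was the library without it and neck was not. MEIS1, a homeodomain factor of the proximal limb and of the early field, had 86.0 CPM in forelimb and 255 CPM in neck.

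ALDH1A2, the main retinoic acid synthesising enzyme of the embryo, had 205 reads (25.8 CPM) in forelimb and 6704 reads (824 CPM) in neck, 31.97 times lower in forelimb (27.8 to 36.9). It had 531 CPM in presumptive forelimb, 62.1 CPM in hindlimb and 1369.6 CPM in flank. The HH18 and HH19 buds were low, and the earlier field, neck and flank were all above 500 CPM. The retinoic acid list as a whole had 14 measured genes, of which 0 were higher, 7 were lower, and the median difference was -0.96. DHRS3, which lowers retinaldehyde, had 6.16 CPM in forelimb and 23.6 CPM in neck. ALDH1A1, a further retinaldehyde dehydrogenase, had 0.880 CPM in forelimb and 4.18 CPM in neck. The receptor RXRA had 11.1 CPM in forelimb and 32.2 CPM in neck. Its entry overlaps 20179 bases of the collagen gene COL5A1 on the same strand, which had 308 reads in forelimb and 1580 in neck. How reads in such overlaps were counted is not given. The degrading enzymes CYP26A1 and CYP26B1 were also lower, at 6.16 and 3.02 CPM in forelimb against 13.9 and 9.83 CPM in neck. CRABP1, which binds retinoic acid in the cytoplasm, had 630 CPM in forelimb and 340 CPM in neck, below the limit. Under TMM the counts were 2 higher and 5 lower.

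**Figure D3:**
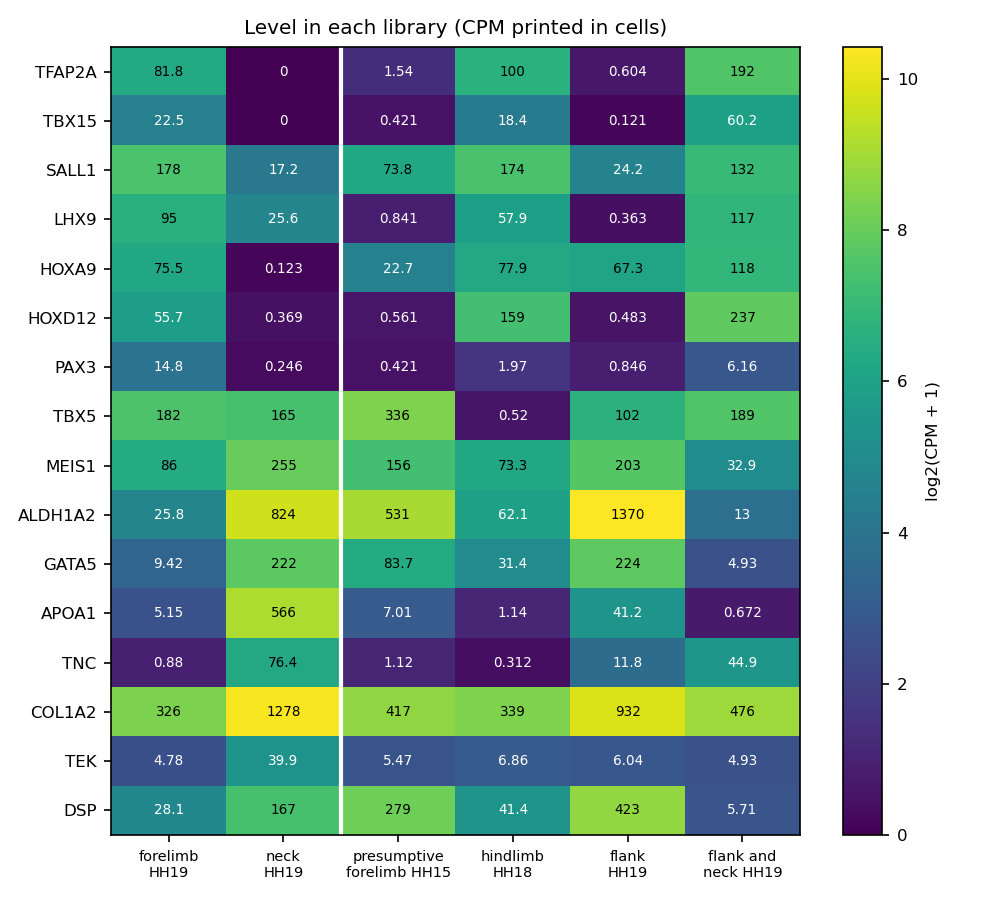
Level of 16 genes in each of the 6 libraries, as CPM in the cells and as log2(CPM + 1) in the colour scale; the white line parts forelimb HH19 and neck HH19 from the other libraries. TFAP2A, TBX15, LHX9 and HOXD12 are high in forelimb, hindlimb and the rightmost library, and ALDH1A2, GATA5 and DSP are high in neck, presumptive forelimb and flank.

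Transcription factors of the limb bud also divided. Of 26 measured, 12 were 2-fold or more higher in forelimb and 7 were lower, with a median difference of 0.73. The higher ones were led by TFAP2A and TBX15. SALL1, a zinc finger factor of limb and kidney, had 178 CPM in forelimb and 17.2 CPM in neck, 10.4-fold higher (8.70 to 12.4), with 174 CPM in hindlimb, 73.8 CPM in presumptive forelimb and 24.2 CPM in flank. TFAP2C had 10.4 CPM in forelimb and 0.614 CPM in neck. SHOX, a homeobox gene of the middle limb, had 52 reads in forelimb and 1 in neck, a ratio of 53.2 (9.13 to 2141). DLX5, a homeobox gene of ridge and mesenchyme, had 64 reads in forelimb and 5 in neck.

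LIM homeodomain factors were among the higher set. LHX9 had 756 reads in forelimb and 208 in neck (25.6 CPM), LHX2 had 92.9 CPM in forelimb and 28.5 CPM in neck, and LMX1B, the dorsal selector of the limb, had 70.6 CPM in forelimb and 17.6 CPM in neck. LHX9 had 57.9 CPM in hindlimb, 0.841 CPM in presumptive forelimb and 0.363 CPM in flank, so neck lay between the buds and the near-floor libraries. LHX2 had 81.8 CPM in hindlimb, 25.9 CPM in presumptive forelimb and 1.69 CPM in flank. MSX1 and TBX18 were also higher, with differences of 1.38 and 1.07.

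The 7 lower factors were ALX1, IRX5, PRRX2, TBX2, MSX2, ALX4 and TWIST2. TWIST2, a factor of dermal and connective tissue mesenchyme, was lowest, with 15.2 CPM in forelimb and 67.0 CPM in neck, 4.40 times lower (3.61 to 5.41). ALX4, a factor of the front of the limb bud and of craniofacial mesenchyme, had 29.2 CPM in forelimb and 97.7 CPM in neck. MSX2 had 53.5 CPM in forelimb and 158 CPM in neck, the opposite direction to MSX1, and TBX2 had 24.0 CPM in forelimb and 67.9 CPM in neck. HAND2, which marks the posterior bud, differed by 0.72, and GLI3 by 0.34. TBX3 differed by -0.91, and PRRX1 by 0.01.

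A set of 5 factors tied to reprogramming cells towards limb progenitors, the subject of this series, was looked at together. The set was chosen with earlier results of these data known, so it is not an independent list. ZBTB16, a zinc finger repressor of limb and stem cells, had 107 CPM in forelimb and 27.3 CPM in neck, 3.91-fold higher (3.37 to 4.55). PRDM16, a zinc finger transcription factor, had 124 CPM in forelimb and 50.1 CPM in neck, 2.47-fold higher (2.20 to 2.78). Both passed the limit. LIN28B, an RNA-binding protein of early progenitors, differed by 0.56 and TRIM71, a ubiquitin ligase of the same pathway, by 0.40. LIN28A had 35.8 CPM in forelimb and 44.97 CPM in neck, a difference of -0.32, with 336 CPM in presumptive forelimb, so for that gene both HH19 tissues were far below the earlier field.

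Of 18 hedgehog genes measured, 4 were 2-fold or more higher in forelimb and 5 were lower, with a median of 0.04. SHH, the ligand, had 28 reads in forelimb (3.52 CPM) and 2 in neck, a ratio of 14.3 (3.61 to 124), and hindlimb had 3.12 CPM against 0.242 CPM in flank. GREM1, the BMP antagonist that links SHH to ridge FGFs, had 91 reads in forelimb and 6 in neck, 15.5-fold higher (6.86 to 43.4). SCUBE1, a secreted protein that can help release the ligand, had 112 CPM in forelimb and 28.6 CPM in neck. The general target genes PTCH1 and GLI1 differed by 0.22 and 0.07. The lower genes were the coreceptors CDON, BOC and GAS1, the exporter DISP1 and the inhibitor HHIP. HHIP had 2 reads in forelimb and 40 in neck, 19.6 times lower (5.07 to 167), and BOC had 61.1 CPM in forelimb and 207 CPM in neck. The SHH entry overlaps other entries on the opposite strand, and how reads in such overlaps were counted is not given.

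Among 21 FGF genes, 6 were higher and 8 were lower. Of the feedback inhibitors and responsive genes, IL17RD, DUSP6, SPRY4 and SPRY2 were higher. SPRED1, SPRED2 and ETV1 were under the limit, with differences of -0.45, -0.35 and -0.34, against a median of -0.27 over all genes. IL17RD had 92.7 CPM in forelimb and 11.3 CPM in neck, 8.20-fold higher (6.599 to 10.3), and DUSP6, a phosphatase that damps ERK, had 77.2 CPM in forelimb and 11.1 CPM in neck, 6.98-fold higher (5.59 to 8.81). SPRY4 and SPRY2 had differences of 1.79 and 1.78. DUSP6 had 96.6 CPM in hindlimb, 26.2 CPM in presumptive forelimb and 7.49 CPM in flank, so both HH18 and HH19 buds stood above the other tissues. The ligand FGF18 had 43 reads in forelimb and 0 in neck, at least 14.7-fold higher.

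Receptors and their partners made up much of the lower side. FGFR2 had 10.9 CPM in forelimb and 79.9 CPM in neck, 7.30 times lower (5.83 to 9.25), FGFR3 had 9.55 CPM in forelimb and 51.4 CPM in neck, and FGFRL1, a receptor without a kinase, had 0.754 CPM in forelimb and 9.95 CPM in neck. FGFR1, the main mesenchymal receptor, differed by -0.22. The membrane proteins FLRT2 and FLRT3, which bind FGF receptors, had 34.2 and 41.6 CPM in forelimb against 247 and 210.5 CPM in neck. FGF2, FGF9 and FGF16 were the other lower genes, each under 5 CPM in both libraries. The ridge ligands FGF8 and FGF4 had 2 and 1 reads in forelimb and 0 in neck.

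BMP and TGF-beta genes had 3 higher and 11 lower of 31 measured, with a median of -0.62. All genes had 3.46% higher and 13.4% lower, with a median of -0.27. The antagonist CHRDL1 had 122 reads in forelimb and 2 in neck, a ratio of 62.4 (16.9 to 521), and it had 72.7 CPM in hindlimb against 1.81 CPM in flank. With GREM1, ID1 was the third higher gene, at 86.6 CPM in forelimb and 17.9 CPM in neck. BAMBI, a decoy receptor, had 21.6 CPM in forelimb and 149 CPM in neck, 6.88 times lower (5.86 to 8.12). BMP5 had 2.01 CPM in forelimb and 14.4 CPM in neck, and LTBP1, which holds latent TGF-beta in the matrix, had 55.9 CPM in forelimb and 252 CPM in neck. ID2 and ID4 were lower while ID1 was higher. BMP4, BMP2 and BMP7 differed by 0.19, 0.54 and -0.13.

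Wnt genes had 3 higher and 9 lower of 38 measured, with a median of -0.43, against 3.46%, 13.4% and -0.27 over all genes. APCDD1, an inhibitor that Wnt signalling itself turns on, had 305 CPM in forelimb and 38.8 CPM in neck, 7.85-fold higher (6.98 to 8.85), with 477 CPM in hindlimb, 70.8 CPM in presumptive forelimb and 40.4 CPM in flank. DKK1 and NOTUM, both inhibitors, were the other higher genes, with differences of 1.51 and 1.08. On the lower side, RSPO1, an enhancer of Wnt signals, had 2 reads in forelimb and 97 in neck, 47.4 times lower (12.8 to 397), and RSPO3 had 3.02 CPM in forelimb and 15.97 CPM in neck. RSPO2 differed the other way, by 0.63. SFRP1 and FRZB, secreted Frizzled-like proteins, had 31.3 and 23.6 CPM in forelimb against 129 and 86.7 CPM in neck, and FZD1, a receptor, had 82.4 CPM in forelimb and 326 CPM in neck. The target genes AXIN2 and LEF1 differed by 0.21 and 0.50.

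Notch genes were few: 3 of 12 were higher and 2 lower, with a median of -0.28. The shares over all genes were 3.46% higher and 13.4% lower, with a median of -0.27. The ligands parted, with JAG2 at 9.05 CPM and DLL4 at 6.03 CPM in forelimb against 2.95 and 2.33 CPM in neck, and JAG1 at 3.64 CPM in forelimb against 22.0 CPM in neck. The target HES4 had 18.2 CPM in forelimb and 6.39 CPM in neck, and the target HEY2 had 6.16 CPM in forelimb and 15.2 CPM in neck.

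Axon guidance genes leaned low, with 1 higher and 16 lower of 40 measured and a median of -0.73. Over all genes 3.46% were higher and 13.4% lower, with a median of -0.27. PLXNA2, a semaphorin receptor, had 5.28 CPM in forelimb and 64.7 CPM in neck, 12.3 times lower (8.95 to 17.2). SLIT3, a secreted repellent, had 6.16 CPM in forelimb and 73.6 CPM in neck, 12.0 times lower (8.92 to 16.3), while its relatives SLIT2 and SLIT1 differed by 0.62 and 0.58. NRP2, a coreceptor for semaphorins and VEGF, had 32.7 CPM in forelimb and 155 CPM in neck, whereas NRP1 differed by -0.19. UNC5C, a netrin receptor, had 8.80 CPM in forelimb and 38.6 CPM in neck. SEMA3G was the 1 higher gene, with 30 reads in forelimb and 8 in neck.

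Fibroblast matrix genes were mostly lower in forelimb. Of 42 measured, 0 were 2-fold or more higher and 31 were 2-fold or more lower, with a median of -1.75. Their summed level was 1739 CPM in forelimb and 6007 CPM in neck, with 1681 CPM in hindlimb, 2680.5 CPM in presumptive forelimb and 4470 CPM in flank. Under TMM the counts were 0 and 28, and the median was -1.47. The 11 genes under the limit ran from VTN at 0.67 to EMILIN2 at -0.76, and VTN and TIMP3 alone were above 0.

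TNC, the glycoprotein tenascin C of embryonic connective tissue, had 7 reads (0.880 CPM) in forelimb and 622 reads (76.4 CPM) in neck, 86.9 times lower (41.9 to 217). It had 0.312 CPM in hindlimb, 1.12 CPM in presumptive forelimb and 11.8 CPM in flank, so all limb libraries were near 1 CPM or below it. An entry on the same strand that overlaps TNC had 0 reads in forelimb and 30 in neck. SVEP1, a large adhesive matrix protein, had 4.65 CPM in forelimb and 143 CPM in neck, 30.8 times lower (22.2 to 44.02), with 3.53 CPM in hindlimb and 72.3 CPM in flank.

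The collagens followed. COL6A1, COL6A2 and COL6A3, the chains of the beaded filament collagen, had 2.89, 1.01 and 38.1 CPM in forelimb against 46.7, 19.9 and 244 CPM in neck. COL1A2, of the main fibril collagen, had 326 CPM in forelimb and 1278 CPM in neck, 3.92 times lower (3.75 to 4.09). COL12A1 had 16.7 CPM in forelimb and 131 CPM in neck, COL5A1 had 38.7 CPM in forelimb and 194 CPM in neck, and COL3A1 had 38.5 CPM in forelimb and 168 CPM in neck. COL5A2 was below the limit at -0.44. The COL5A1 entry overlaps that of RXRA on the same strand, and how reads in such overlaps were counted is not given. An entry on the opposite strand overlaps 93 bases of COL1A2, with 881 reads in forelimb and 3298 in neck.

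Other matrix genes differed in the same direction. LUM, the leucine-rich proteoglycan lumican, had 57.7 CPM in forelimb and 480.1 CPM in neck, and POSTN, periostin, had 21.7 CPM in forelimb and 186 CPM in neck. ELN, elastin, had 10.8 CPM in forelimb and 64.4 CPM in neck. FN1, fibronectin, had 240.1 CPM in forelimb and 732 CPM in neck, and SPARC had 152 CPM in forelimb and 542 CPM in neck. DCN, decorin, and FBLN1, fibulin 1, differed by -0.51 and -0.15.

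**Figure D4:**
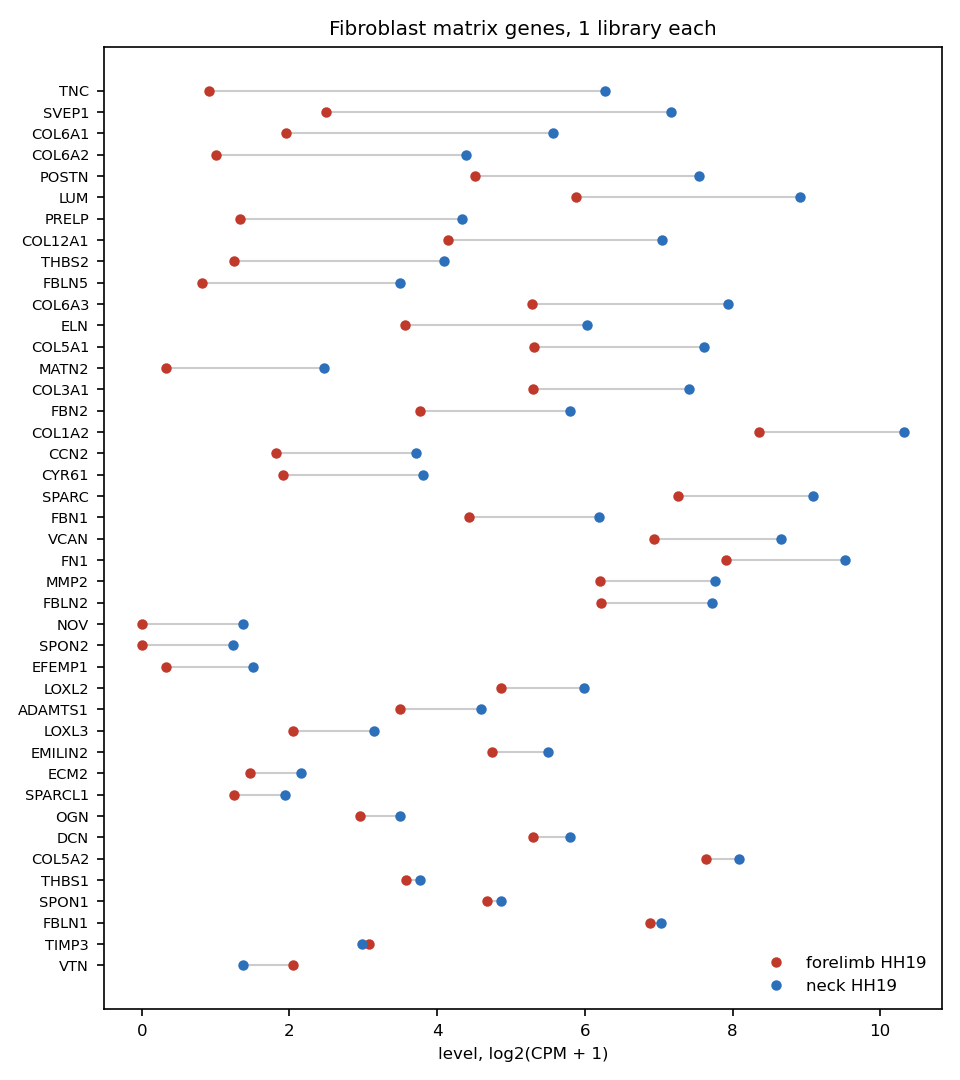
Level of the 42 measured fibroblast matrix genes in forelimb HH19 and neck HH19 as log2(CPM + 1), 1 library each, with a grey line joining the values of a gene and genes in order of difference. The forelimb point lies left of the neck point for 40 genes, and the widest gap is that of TNC, with 0.880 CPM in forelimb and 76.4 CPM in neck.

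Cartilage genes had 1 higher and 6 lower of 11 measured. COL2A1, the cartilage collagen, had 23.8 CPM in forelimb and 138 CPM in neck, 5.83 times lower (4.99 to 6.84), and COL9A1 had 2 reads in forelimb and 44 in neck. COL11A1 had 14.95 CPM in forelimb and 70.3 CPM in neck. SOX9, the master gene of cartilage, differed by 0.36, while SOX6, a partner of SOX9, had 5.53 CPM in forelimb and 27.0 CPM in neck. SOX8 was the higher gene, at 23.2 CPM in forelimb and 3.32 CPM in neck. The late cartilage gene ACAN had 6 reads in each library.

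Basement membrane and adhesion genes had 0 higher and 10 lower of 30 measured, with a median of -0.69. The shares of all genes were 3.46% and 13.4%, with a median of -0.27. LAMA2, a laminin chain of muscle and mesenchyme, had 1.63 CPM in forelimb and 19.7 CPM in neck, 12.0 times lower (6.84 to 23.1), and LAMA4 had 22.1 CPM in forelimb and 74.0 CPM in neck. LAMA1, the early embryonic chain, differed by 0.33. The integrins ITGA8 and ITGAV had 7.67 and 11.7 CPM in forelimb against 35.3 and 43.9 CPM in neck, while ITGB1 differed by 0.22 and NID1, nidogen 1, by 0.99. Under TMM the counts were 1 higher and 5 lower.

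Of 18 genes of cell contact, 2 were higher and 8 lower. ALCAM, an immunoglobulin adhesion molecule, had 14.1 CPM in forelimb and 100.1 CPM in neck, 7.11 times lower (5.83 to 8.75). CDH4 had 7.29 CPM in forelimb and 50.6 CPM in neck, CDH2, N-cadherin, had 25.4 CPM in forelimb and 103 CPM in neck, and CADM2 had 2 reads in forelimb and 50 in neck. CDH11, the mesenchymal cadherin, had 182 CPM in forelimb and 361 CPM in neck, just under the limit at -0.98.

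Body wall and dermis genes had 1 higher and 9 lower of 20 measured. NFIA and NFIB, nuclear factors of differentiating mesenchyme, had 2.14 and 3.39 CPM in forelimb against 13.02 and 17.9 CPM in neck. FOXP2 had 35.2 CPM in forelimb and 122 CPM in neck. Genes of the pharyngeal arches, a source of neck tissue, went both ways, with 5 higher and 5 lower of 12 and a median of -0.13. That median turned to 0.10 under TMM and to 1.20 with a filter at 5 CPM. EYA4 had 1 read in forelimb and 70 in neck and TCF21 had 1 and 27, whereas MSC had 78 reads in forelimb and 5 in neck and DLX5 had 64 and 5.

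Genes of the lining of the body cavity were among the lowest in forelimb. Of 18 measured, 10 were 2-fold or more lower and 3 were higher, with a median of -2.04. GATA5, a zinc finger factor of heart and cavity lining, had 75 reads (9.42 CPM) in forelimb and 1803 reads (222 CPM) in neck, 23.5 times lower, with 31.4 CPM in hindlimb, 83.7 CPM in presumptive forelimb and 224 CPM in flank. GATA4 had 1 read in forelimb and 158 in neck, a ratio of 154 (27.3 to 6140). It had 0.725 CPM in flank, so unlike GATA5 it was not high there. GATA6 had 5 reads in forelimb and 169 in neck, and WT1, the defining gene of the lining, had 4 and 82. The 3 higher members, LHX9, LHX2 and TBX18, are limb bud factors as well, and ALDH1A2 is on this list and on the retinoic acid list. The summed level of the list was 545 CPM in forelimb and 1600.0 CPM in neck, and ALDH1A2 and GATA5 made up most of the neck sum. The list's median was -0.88 with no filter and -1.08 with a pseudocount of 5. Unnamed entries on the opposite strand overlap GATA4 and GATA5, with 9 and 26 reads in forelimb and 205 and 689 in neck.

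Heart and foregut genes pointed the same way and share GATA6 and other members with the lining. Of 11 heart genes measured, 0 were higher and 9 lower, and their sum was 170 CPM in forelimb and 425 CPM in neck. The largest part of that neck sum was GATA5, which is on the lining list as well. HCN4, a pacemaker channel, had 1 read in forelimb and 62 in neck, and RYR2, the heart calcium release channel, had 2 and 46. The defining heart genes NKX2-5 and TNNT2 had 0 reads in forelimb and 2 and 5 reads in neck. Of 7 foregut genes measured, 1 was higher and 6 were lower. Their sum was 16.6 CPM in forelimb and 616 CPM in neck, and the neck sum was mostly APOA1, an apolipoprotein of liver and gut. APOA1 had 41 reads (5.15 CPM) in forelimb and 4610 reads (566 CPM) in neck, 110 times lower (80.9 to 153). It had 1.14 CPM in hindlimb, 7.01 CPM in presumptive forelimb and 41.2 CPM in flank. The foregut genes NKX2-1 and CLDN18 had 0 reads in both. An unnamed entry on the other strand of APOA1 had nearly the same reads, 41 in forelimb and 4526 in neck.

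Endothelial genes had 2 higher and 11 lower of 21 measured, with a median of -1.09 and a sum of 207 CPM in forelimb and 507 CPM in neck. TEK, the angiopoietin receptor, had 4.78 CPM in forelimb and 39.9 CPM in neck, 8.36 times lower (5.96 to 12.0), and hindlimb, presumptive forelimb and flank were between 5.47 and 6.86 CPM, all near forelimb. LYVE1, of lymphatic and some venous vessels, had 1 read in forelimb and 43 in neck. CDH5, the junction cadherin of vessels, had 40.0 CPM in forelimb and 148 CPM in neck. Against these, the arterial connexins GJA5 and GJA4 were higher, with 50 and 29 reads in forelimb and 0 and 6 in neck, and ESAM differed by -0.04. None of the 22 endothelial genes in the table had 0 reads in forelimb.

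Muscle precursor genes were mostly higher in forelimb, with 8 of 13 measured past the limit, 2 lower, and a median of 1.14. Of all genes 3.46% were higher and 13.4% lower. Under TMM the list had 8 higher and 0 lower. Its median was 0.59 with no filter and 0.64 with a pseudocount of 5. PAX3, the marker of the cells that leave the somites for the limb, had 118 reads (14.8 CPM) in forelimb and 2 in neck, a ratio of 60.3 (16.3 to 504), with 1.97 CPM in hindlimb, 0.421 CPM in presumptive forelimb and 0.846 CPM in flank. PAX7 had 41 reads in forelimb and 0 in neck, and MYF5, the first muscle determination gene, had 13 and 0. Both passed the filter only through forelimb, so their calls follow from it. CXCR4, a chemokine receptor of migrating cells, had 82 reads in forelimb and 6 in neck. PAX3 and CXCR4 had a few reads in neck but were under 1 CPM there, so they too entered only through forelimb. The receptor MET had 7.04 CPM in forelimb and 2.70 CPM in neck, and EYA1, a transcriptional cofactor, had 40.1 CPM in forelimb and 12.2 CPM in neck. MYOD1 and MYOG, later muscle regulatory genes, had 0 reads in forelimb and 1 and 0 reads in neck. MEF2C and ACTC1, shared with heart, were lower. Of the somite list, 3 of 5 were higher and 1 was lower, with SIM1, a factor of the ventrolateral somite, at 45 reads in forelimb and 0 in neck. SIM1 likewise passed the filter only through forelimb, so its call follows from the filter, and PAX3 is on this list as well. The summed myogenic level was 181 CPM in forelimb and 102 CPM in neck.

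Surface ectoderm genes had 1 higher, TFAP2A, and 6 lower of 12 measured. KRT5 had 1.38 CPM in forelimb and 15.6 CPM in neck, KRT19 had 8.67 CPM in forelimb and 64.99 CPM in neck, KRT8 had 9.93 CPM in forelimb and 68.6 CPM in neck, and DSP, desmoplakin, had 28.1 CPM in forelimb and 167 CPM in neck. DSP had 41.4 CPM in hindlimb, 279 CPM in presumptive forelimb and 423 CPM in flank. TP63 and CDH1, which define surface epithelium, differed by -0.37 and -0.32. The sum was 156 CPM in forelimb and 363 CPM in neck, and TFAP2A made up 81.8 CPM of the forelimb sum. Of apical ridge genes, 1 of 6 was higher and 2 were lower, with a sum of 199 CPM in forelimb and 277 CPM in neck. The largest part of that neck sum was MSX2, which is on the limb bud list as well. Of the 6 ridge genes, 4 were above 0, and the median difference was 0.36.

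Of 9 blood genes measured, 5 of them globins, 0 were higher and 0 lower, and their sum was 2957 CPM in forelimb and 2230 CPM in neck, against 40155 CPM in flank. Of neural tube genes, 0 of 5 were higher and 2 lower, with PAX6 at 0 reads in both and SOX2 at 2 reads in forelimb and 1 in neck. Of neuron and glia genes, 1 of 10 was higher and 3 were lower. Of notochord genes, SHH was the 1 higher of 2. Of neural crest genes, 4 of 14 were higher and 4 lower, with a sum of 355 CPM in forelimb and 334 CPM in neck. The higher ones, TFAP2A, PAX3, PAX7 and SOX8, are all on other lists as well. SOX10, which defines crest, had 0 reads in both, and MOXD1 had 10 reads in forelimb and 178 in neck. Of 4 tendon genes, EGR1 was higher and THBS4 lower. The part that cells of these kinds play in the differences of other genes was not tested, and the make-up of the dissected pieces cannot be told apart from expression in mesenchyme.

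Among genes of growth, a few were far higher in forelimb and most differed little. MYCN, the MYC family member of embryonic progenitors, had 1112 reads (140 CPM) in forelimb and 241 reads (29.6 CPM) in neck, 4.72-fold higher (4.10 to 5.45), with 142 CPM in hindlimb, 156 CPM in presumptive forelimb and 31.7 CPM in flank. NPM3, a nucleolar chaperone, had 535 CPM in forelimb and 91.4 CPM in neck, 5.85-fold higher (5.41 to 6.34), with 613 CPM in hindlimb, 743 CPM in presumptive forelimb and 137 CPM in flank. For both genes the limb libraries of either stage stood above neck and flank. These were the 2 higher of 14 MYC and progenitor genes, of which 0 were lower.

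Ribosome assembly genes were shifted as a body but by little. Of 34 measured, 33 had a positive difference, 5 passed the limit and 0 were lower, with a median of 0.57. Besides NPM3 the higher genes were IMP3, UTP3, EMG1 and NHP2, with differences of 1.34, 1.33, 1.32 and 1.21. Of 59 ribosomal protein genes, 53 were above 0, 2 were higher (RPS27A at 1.78 and RPL22 at 1.15) and 0 lower, with a median of 0.35. Of 46 respiratory chain genes, 39 were above 0, 3 were higher, among them COX8A and NDUFA5, and 0 lower, with a median of 0.35. Under TMM the higher counts of these 3 lists were 12, 10 and 12, while those of all 11959 genes rose from 414 to 750.

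Cell cycle genes differed little. Of 37 measured, 0 were higher and 1, the antiproliferative gene BTG2, was lower, with a median of 0.13. CDK1 had 811 CPM in forelimb and 488 CPM in neck, a difference of 0.73, and CDC20 differed by 0.81, while TOP2A and MKI67 differed by -0.50 and -0.61. Glycolysis and hypoxia genes had 3 higher and 3 lower of 26, which became 6 and 1 under TMM. The shares of all genes without TMM were 3.46% and 13.4%. The higher genes were NDRG1, LDHB and PGK1, and LDHB had 1627 CPM in forelimb and 713 CPM in neck. HIF1A, the hypoxia factor, differed by -0.83, and GAPDH by -0.22.

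**Figure D5:**
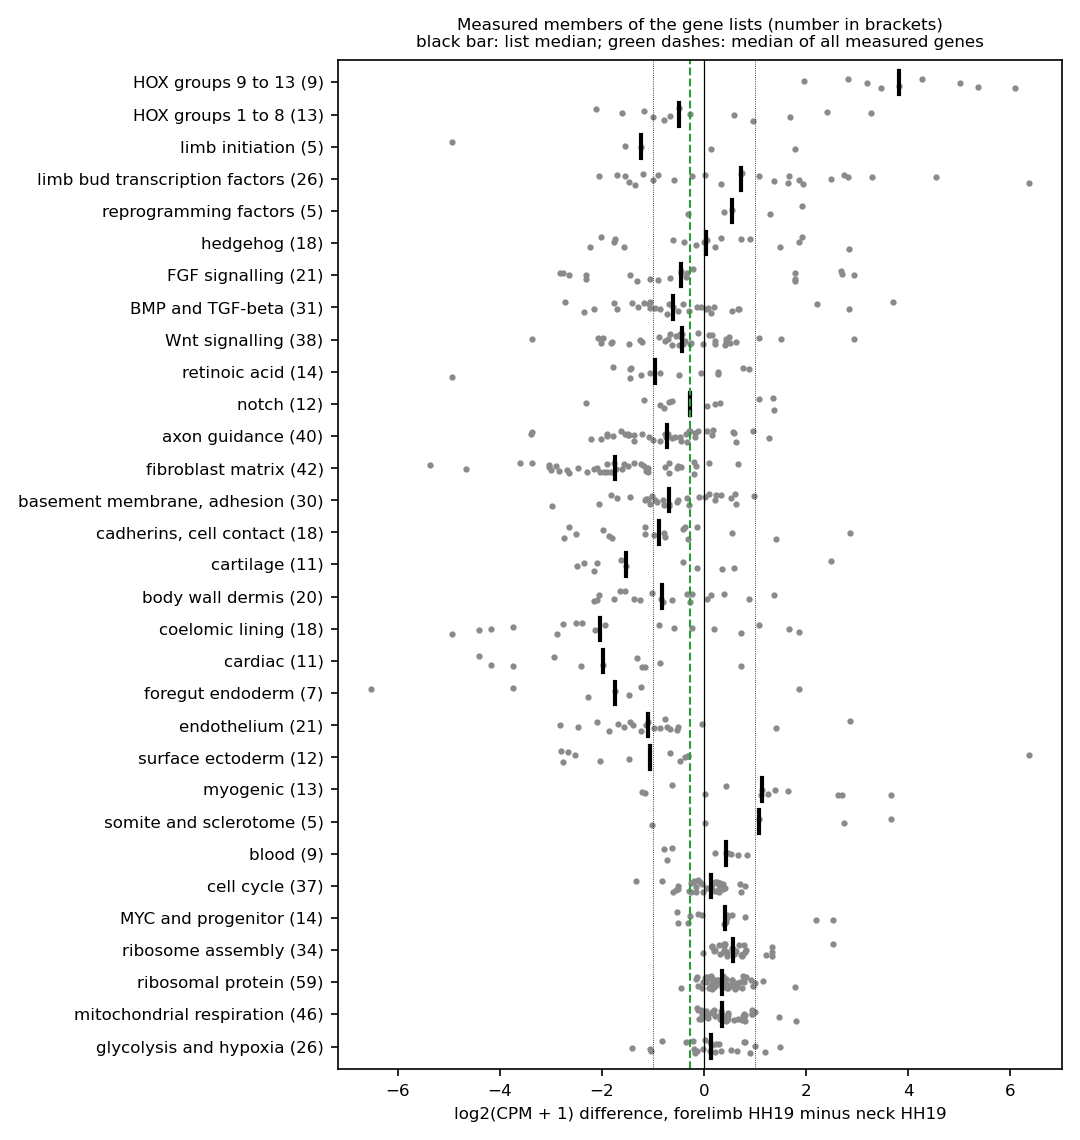
Difference in log2(CPM + 1), forelimb HH19 minus neck HH19, of each measured member (grey point) of 31 gene lists, with the number of members in brackets; black bars are list medians, green dashes the median of all genes (-0.27) and dotted lines the 2-fold limits. HOX groups 9 to 13 lie to the right at a median of 3.81, and fibroblast matrix, cartilage, body cavity lining, heart and foregut lie to the left.

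The difference went with the length of the gene. With the measured genes cut into 5 equal bins by genomic span, the median difference was -0.08 in the bin of shortest genes (up to 3021 bases) and -0.49 in that of the longest (from 40054 bases). The shortest bin held 194 higher and 250 lower genes and the longest held 64 and 555. The median span was 34278 bases for the fibroblast matrix genes and 63370 bases for the axon guidance genes, and 3195 bases for the ribosomal protein genes and 2993 bases for the respiratory chain genes. With each bin's median taken off, a step chosen after seeing the data, fibroblast matrix genes had a median of -1.25, with 28 lower and 0 higher. Axon guidance genes then had 10 lower and 3 higher, with a median of -0.32. Over all 11959 genes, 935 were then lower and 689 higher. Ribosome assembly genes had a median of 0.78, against 0.57 as reported.

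A pair of libraries that shares none with this comparison, hindlimb HH18 and flank HH19, gave a further view of bud against non-bud tissue. Of 11446 genes measured in both comparisons, 384 were higher in forelimb than in neck (3.35%) and 378 higher in hindlimb than in flank (3.30%). They had 149 genes in common, 38.8% of the forelimb list and 39.4% of the hindlimb list, and 7 of the forelimb list were 2-fold or more lower in hindlimb. On the lower side, 1460 genes of forelimb (12.8%) and 950 of hindlimb (8.30%) had 559 in common, 38.3% of the forelimb list and 58.8% of the hindlimb list, with 22 in the opposite direction. PAX3 and FSTL4 were high in forelimb against neck but stood at 1.97 and 2.49 CPM in hindlimb, and LIX1 had 6.28 CPM in forelimb and 99.9 CPM in neck but 116 CPM in hindlimb and 8.58 CPM in flank.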

How the data were processed

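Polyadenylated RNA of chick mesenchyme was sequenced as 1 library for each of 6 tissues and stages. The counts deposited by the authors are reads per gene, and the CPM (normalised) values deposited by the authors are those counts scaled to each library's total over the table's genes. The deposited fold columns hold the ratio of 2 libraries' normalised values, and the p-value columns that the authors deposited name no test. Neither was used as a result. Of 11677 genes with a usable deposited fold, 11677 lay within 5% of the fold recomputed from CPM. TopHat 1.4.0 and the galGal4 build are named, without a role, in the processing notes of the submitters. The read counter, annotation and strand setting are not given in the sources used here, and 0 per-sample columns were left unused. The flank library's title gives 9 where its source label gives HH19, and the flank and neck library's column was taken from the letters and stage in its name.

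Genes at 1 CPM or more in either library were compared on log2(CPM + 1), forelimb minus neck, and a difference of 1 or more either way counted. Intervals are Wilson for CPM and exact (Clopper-Pearson) for folds, at 95%. Of the measured entries, 8495 had a gene name, by the table's symbol, RefSeq or the table's description, and 3464 had none. Described by name are the 15 genes with a gene name and the largest difference in each direction, the 4 largest of each of 40 gene lists, all measured members of the HOX, limb initiation and reprogramming lists, and other list members beside their list's counts. A few members that these rules pick are counted but not reported here. The members and lists were chosen with earlier results of these data known. Steps were tested on simulated data. Software was R 4.3.3, edgeR 4.0.16, DESeq2 1.42.0, Python 3.11.15, pandas 2.3.3, NumPy 2.4.6, SciPy 1.17.1 and matplotlib 3.10.9. Alternatives were other pseudocounts, filters, scalings and limits.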

Additional observations from a re-analysis of the deposited data

How the results depend on the processing

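No paired analysis was possible because each group has 1 library, and no library could be left out for the same reason. The count of genes higher in forelimb (414) was 210 with a pseudocount of 5, 80 at a 4-fold limit and 237 where the counting interval also had to lie beyond 2-fold. The count of lower genes (1608) was 625, 275 and 858 under the same settings. Other scalings moved the counts towards each other: with TMM there were 750 higher and 1069 lower genes, with DESeq2 size factors 777 and 1034, and with the median of all genes set to 0 there were 789 and 963. With the median of each of 5 bins of genomic span taken off, chosen after seeing the data, there were 689 and 935. The share of called genes that were higher in forelimb was 41.2% under TMM, 42.9% under DESeq2 size factors, 45% after centring and 42.4% after centring by span, against 20.5% as reported. A count of 0 in forelimb still allows 0.377 CPM and in neck 0.369 CPM, so folds of genes near that level are the least certain. Without mitochondrial genes in the total, also chosen after seeing the data, there were 435 higher and 1815 lower genes, and a pseudocount of 0.1, a filter at 5 CPM or none, the 10 leading genes removed and 1 entry per symbol left both counts within 1.5 times. The 30 named genes of largest difference stayed past the limit under all alternatives run. They were picked for their size, with the smallest at 3.39 against a limit of 1, so this outcome was close to fixed by the choice. The median of the limb initiation list was -1.24 as reported and 0.015 with no filter, where members with a few reads enter. The list medians that changed sign numbered 1 under TMM (pharyngeal), 4 with no filter and 6 with a filter at 5 CPM, pharyngeal among them.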

Other observations

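Genes of cell stress and of peptide growth signals went both ways. Of 20 measured stress and immediate early genes, 4 were 2-fold or more higher in forelimb and 4 were lower, with a median of 0.35. EGR1, an immediate early transcription factor, had 10.3 CPM in forelimb and 2.33 CPM in neck, and HSPE1, a mitochondrial chaperone, had 1006 CPM in forelimb and 435 CPM in neck. JUN and KLF6, also immediate early genes, had 14.6 and 9.05 CPM in forelimb against 55.9 and 37.4 CPM in neck, so the class did not share a direction. HSPA2, a heat shock protein, had 12.7 CPM in forelimb and 63.1 CPM in neck.

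Of 19 genes of insulin-like, PDGF and chemokine signals, 2 were higher, NTS and CXCR4, and 6 were lower. CXCL14, a chemokine of epithelium and mesenchyme, had 3 reads (0.377 CPM) in forelimb and 261 reads (32.1 CPM) in neck, a ratio of 85.1 (28.8 to 415), with 1.77 CPM in hindlimb, 2.52 CPM in presumptive forelimb and 5.20 CPM in flank. PDGFD, a PDGF ligand, had 0.754 CPM in forelimb and 7.37 CPM in neck, and PDGFRA, a receptor of mesenchyme, had 54.4 CPM in forelimb and 132 CPM in neck. IGFBP5, which binds insulin-like growth factors, had 1.51 CPM in forelimb and 6.14 CPM in neck.

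Further genes among the 15 named genes with the largest negative difference lay outside the lists. AHNAK2, a large scaffold protein, had 1.26 CPM in forelimb and 57.7 CPM in neck, but 63.8 CPM in presumptive forelimb and 158 CPM in flank. SYNPO2, an actin-binding protein, had 1.26 CPM in forelimb and 34.6 CPM in neck, and SLCO2A1, a prostaglandin transporter, had 1 read in forelimb and 96 in neck. Both of these were under 7 CPM in hindlimb, presumptive forelimb and flank, so neck was their highest library. PDZRN3, a ubiquitin ligase, had 6.28 CPM in forelimb and 80.0 CPM in neck, and FAM198B had 2 reads in forelimb and 109 in neck.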
